A study of Mus musculus with 6 samples.

Results

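The growth hormone, STAT5 and IGF1 axis was followed through 10 genes in livers of 3 WT and 3 TRIM24 C52/55A knockin mice. The genes were taken by symbol from the deposited expression tables, and all 10 were found among the 21528 genes listed in any library. They are the receptor gene *Ghr* and the kinase gene *Jak2*, the transcription factor genes *Stat5a* and *Stat5b*, the feedback inhibitor genes *Socs2* and *Cish*, the repressor genes *Bcl6* and *Cux2*, and *Igf1* and *Igfals*, which encode secreted proteins. None of the 9 testable genes passed the test for a difference between genotypes after adjustment, where 7.72% of all genes tested did. *Cish*, *Socs2* and *Bcl6* varied among mice of the same genotype more than nearly all other liver genes.

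Growth hormone from the pituitary binds its receptor on hepatocytes, and the kinase JAK2 bound to that receptor phosphorylates STAT5A and STAT5B, which then enter the nucleus. STAT5 switches on *Igf1* and *Igfals*, whose products circulate together as a stable complex, and it switches on *Socs2* and *Cish*, whose products damp the receptor signal within hours. In rodents growth hormone is secreted in pulses that differ between the sexes, so that the liver is male-typed or female-typed in its STAT5 target genes. BCL6 is a repressor, more abundant in male liver, that shares many DNA sites with STAT5, and CUX2 is a repressor made mostly in female liver.

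TRIM24 is an E3 ubiquitin ligase, and the knockin replaces 2 cysteines of its RING domain by alanine in the endogenous gene, in every cell that expresses it. The WT group had 3 mice and the TRIM24 C52/55A group had 3, all labelled C57BL/6, 5 months old and given a high-fat diet (HFD), with 60% fat, for 3 months. By the study's methods the knockins were homozygous, had a C57Bl/6J background, were made with CRISPR/Cas9 and came from crosses of heterozygotes, as did the WT controls. RNA of whole liver was sequenced as 1 library per mouse, so p-values measure the spread between these mice. A lower level in whole liver can mean fewer cells of a type or less RNA per cell, which cannot be told apart here.

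Levels are in FPKM, the fragments of a gene per kilobase of transcript scaled to the mapped fragments of the library. Library sums ran from 644619 to 648221 FPKM for WT and from 673244 to 676791 FPKM for knockin livers, and relative sequencing depth, read from the steps between low values, lay between 0.964 and 1.03. *Trim24* itself had 5.54, 4.85 and 5.96 FPKM in WT mice 1 to 3 and 6.15, 4.31 and 8.46 FPKM in the knockin mice. The knockin changes codons, so this level does not check the labels. The labels give no sex. The Y-linked genes *Kdm5d*, *Uty*, *Ddx3y* and *Eif2s3y* had at least 1.33 FPKM in every library, and *Xist* had at most 0.00403 FPKM. Of 8 hepatocyte markers 7 were found, with summed levels of 17010 to 17360 FPKM in WT and 17030 to 20040 FPKM in TRIM24 C52/55A livers, and *Alb* was not analysed here. Of the 7, 1 was called, where 7.72% of all genes were. It was *Cps1* of the urea cycle, which rose from 321 ± 37.1 to 498 ± 78.0 FPKM (SD, n = 3 each; limma, adjusted p = 0.0281). TRIM24 C52/55A mouse 2 stood apart by adipocyte genes. It had 4.55 FPKM of *Adipoq*, 3.32 of *Plin1*, 3.98 of *Lep* and 1.59 of *Retn*, each of which had at most 0.127 FPKM in the other libraries. The other 3 adipocyte markers did not set it apart in this way. *Cidec* had 6.12 FPKM in this mouse and 9.94 to 25.2 FPKM in WT, and *Cfd* 2.54 against 3.10 to 8.62 FPKM. *Cidec* was lower and *Adrb3* higher in the knockin group (limma, adjusted p = 0.0286 and 0.000715). The 7 adipocyte markers summed to 20.7 to 31.4 FPKM in WT and 8.58 to 34.5 FPKM in TRIM24 C52/55A livers. Values of each tested axis gene without this mouse are therefore given beside its result.

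The level of the axis genes spanned a wide range. In WT liver *Ghr* and *Igf1* were highest, at 185.9 ± 11.5 and 181.5 ± 25.5 FPKM (SD, n = 3 each), and their ranges overlapped. *Igfals* followed at 31.6 ± 4.19 FPKM, then *Stat5b* at 13.6 ± 0.700 FPKM, and neither range overlapped that of its neighbour. From *Stat5a* through *Cish*, *Bcl6* and *Jak2* to *Socs2*, mean levels fell from 5.36 to 2.79 FPKM and each range overlapped the next. *Cux2* was last at 0.124 FPKM. In TRIM24 C52/55A liver *Igf1*, *Ghr* and *Igfals* again led, and *Bcl6* came next, ahead of *Stat5b*, with a mean of 20.1 FPKM and a range that overlapped that of the latter. FPKM are scaled per length, which allows this order, but the length depends on the gene model used.

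**Figure D1:**
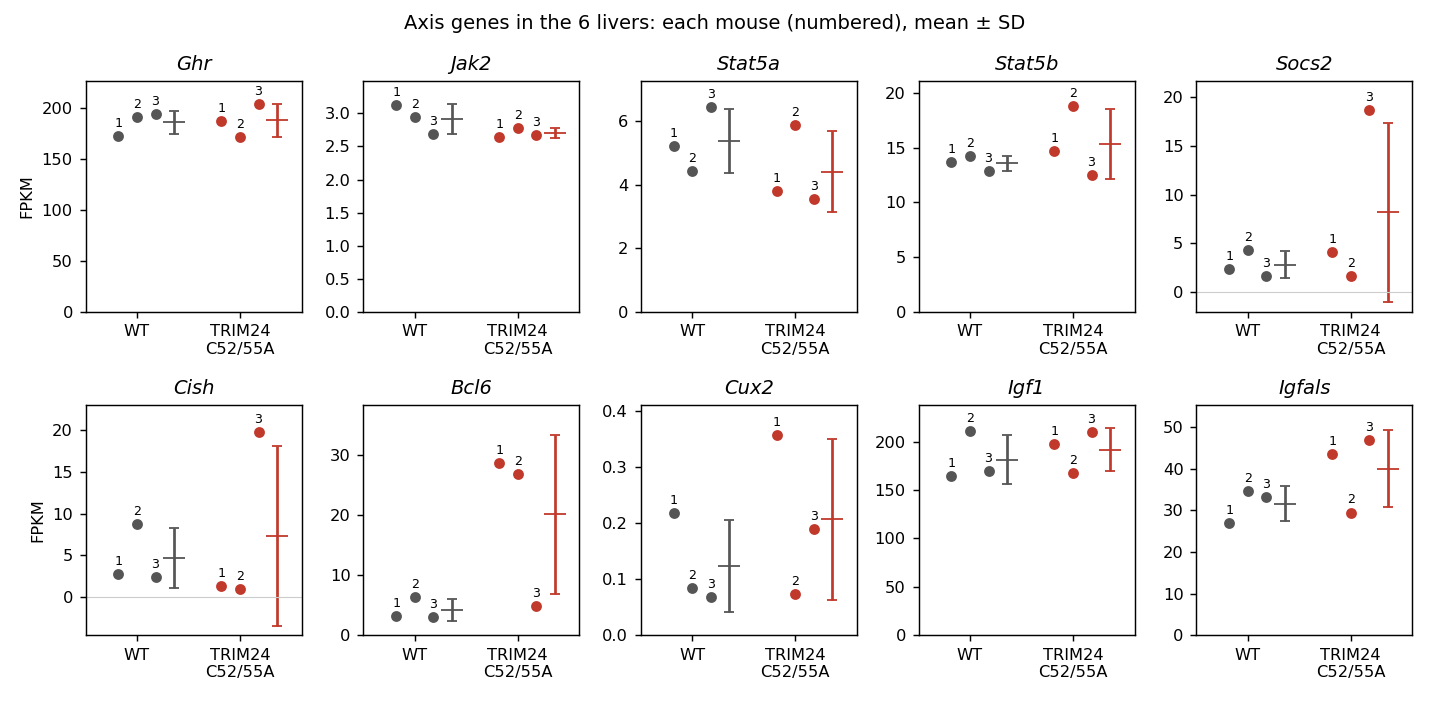
FPKM of the 10 axis genes in each liver, with a separate vertical axis per gene; points are mice, numbered 1 to 3 within WT (grey) and TRIM24 C52/55A (red), and bars are the mean ± SD. The groups overlap for every gene, and mouse 3 of the TRIM24 C52/55A group is highest for *Socs2* and *Cish* while mice 1 and 2 are highest for *Bcl6*.

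Each gene was compared between genotypes on the scale of log2(FPKM + 1) with limma, and p-values were adjusted by Benjamini-Hochberg over 12225 genes, those averaging 0.5 FPKM or more. *Cux2* was below this limit, and 9 of the 10 axis genes were tested. Of these, 0 had an adjusted p-value under 0.05, against 7.72% of all genes tested. The knockin livers were higher for 1.64% of all genes and lower for 6.09%. At an unadjusted p under 0.05 there was 1 axis gene, *Bcl6*, against 23.6% of all genes. The groups were fully separated for 0 of the 9, against 28.9% of all genes. Of the 9, 6 had a positive and 3 a negative log2 fold change, with a median of 0.08, beside a median of -0.075 over all genes tested.

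**Figure D2:**
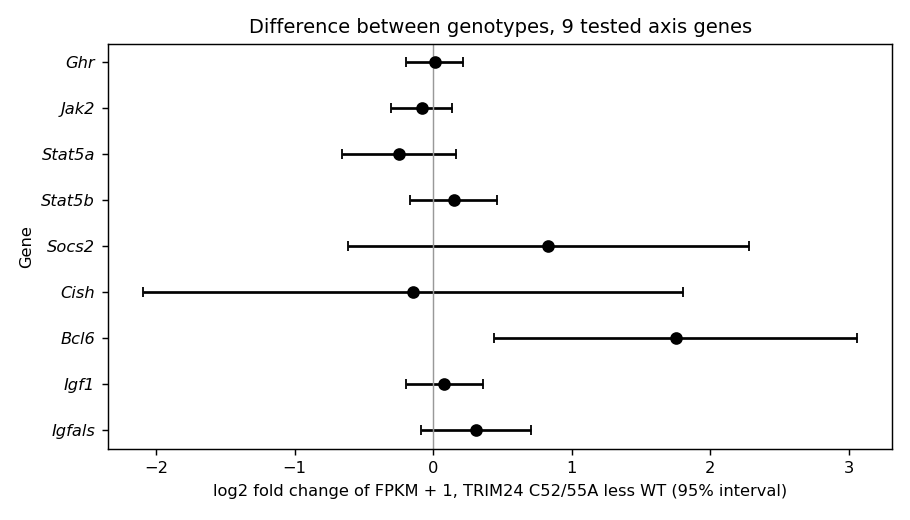
Log2 fold change of FPKM + 1 (TRIM24 C52/55A less WT, horizontal axis) of the 9 tested axis genes, with 95% confidence intervals from limma. The interval of *Bcl6* lies above 0 before adjustment, the other intervals include 0, and those of *Socs2* and *Cish* are several log2 units wide.

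The receptor and kinase genes were the steadiest. *Ghr*, on chromosome 15 from 3317760 to 3583492, had 173, 192 and 194 FPKM in WT mice 1 to 3 and 187, 172 and 204 FPKM in knockin (TRIM24 C52/55A) mice 1 to 3. The groups covered much the same range. Its log2 fold change was 0.01 with a 95% interval from -0.19 to 0.22 (limma, adjusted p = 0.956), and without TRIM24 C52/55A mouse 2 it was 0.074. *Jak2*, on chromosome 19 from 29251828 to 29313080, had 3.13, 2.95 and 2.68 FPKM in WT and 2.64, 2.79 and 2.68 FPKM in TRIM24 C52/55A livers. WT mouse 3 lay among the TRIM24 C52/55A mice, and WT mice 1 and 2 lay above them. Its log2 fold change of -0.08 had an interval from -0.30 to 0.14 (adjusted p = 0.668), and without TRIM24 C52/55A mouse 2 it was -0.098. Of 23 tested genes for other JAK and STAT proteins, SOCS and PIAS inhibitors, SH2B adaptors and phosphatases, 0 were called by limma, where 7.72% of all genes were called, 10 were higher and 13 lower, and their median log2 fold change was -0.08.

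*Stat5a* and *Stat5b* lie beside each other on chromosome 11 and encode near copies, so reads may have been split between them uncertainly. *Stat5b*, from 100780731 to 100850724, had 13.7, 14.2 and 12.8 FPKM in WT and 14.7, 18.9 and 12.5 FPKM in TRIM24 C52/55A livers. TRIM24 C52/55A mice held both the highest and the lowest value. The log2 fold change was 0.15 with an interval from -0.16 to 0.46 (limma, adjusted p = 0.572), and without TRIM24 C52/55A mouse 2, which had the highest value, it was 0.0007. Without TRIM24 C52/55A mouse 3, which had the lowest, it was 0.28 (adjusted p = 0.249). *Stat5a* had 5.21, 4.43 and 6.43 FPKM in WT and 3.81, 5.87 and 3.55 FPKM in TRIM24 C52/55A livers. Mice 1 and 3 of the TRIM24 C52/55A group were lowest, and mouse 2 lay within the WT range. *Stat5a* gave a log2 fold change of -0.25, its interval running from -0.66 to 0.17 (adjusted p = 0.466). Without TRIM24 C52/55A mouse 2 it was -0.43 (adjusted p = 0.102), and without WT mouse 3 or TRIM24 C52/55A mouse 3 it was -0.13. The interval of *Stat5a* in the files runs from 100859351 to 100939540, 80.2 kb against 25.8 kb in the GENCODE M21 annotation, and covers its neighbour *Stat3*.

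The balance of the STAT5 genes was also compared within each liver. The log2 ratio of *Stat5b* to *Stat5a* (each as FPKM + 1) was 1.24, 1.49 and 0.90 in WT and 1.71, 1.53 and 1.57 in TRIM24 C52/55A livers. Every TRIM24 C52/55A liver lay above every WT liver, the nearest by little. The means differed by 0.40, with an exact two-sided permutation p of 0.1, the smallest that 3 against 3 can give, and 0.2 after adjustment over the 4 ratios compared. With a pseudocount of 0.1 FPKM they differed by 0.45.

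The feedback inhibitors behaved differently from the genes above them. SOCS2 and CISH bind the activated receptor and limit its signal, and their genes are textbook readouts of recent STAT5 activity in liver. *Socs2*, on chromosome 10 from 95385362 to 95417180, had 2.33, 4.34 and 1.70 FPKM in WT and 4.16, 1.67 and 18.7 FPKM in TRIM24 C52/55A livers. TRIM24 C52/55A mouse 3 was far above all other mice, whereas mouse 2 of that group was the lowest of all. The group means were 2.79 ± 1.38 and 8.17 ± 9.19 FPKM (SD, n = 3 each), and the log2 fold change was 0.83 with an interval from -0.62 to 2.28 (limma, adjusted p = 0.486). It was 0.03 without TRIM24 C52/55A mouse 3 and 1.47 (adjusted p = 0.131) without mouse 2.

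*Cish*, on chromosome 9 from 107292435 to 107302784, ranged even more widely. It had 2.75, 8.81 and 2.37 FPKM in WT and 1.27, 0.939 and 19.8 FPKM in TRIM24 C52/55A livers. TRIM24 C52/55A mice 1 and 2 were below every WT mouse and mouse 3 was above every WT mouse, while WT mouse 2 was highest of its group, as it was for *Socs2*. The log2 fold change was -0.15 with an interval from -2.09 to 1.80 (limma, adjusted p = 0.942). Without TRIM24 C52/55A mouse 3 it was -1.25 (adjusted p = 0.131), and without mouse 2 of that group it was 0.46 (adjusted p = 0.768). The interval includes changes of several fold in either direction. The interval of *Cish* in the files is 10.4 kb long, against 6.8 kb in the annotation.

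STAT5 binds paired half-sites spaced as TTCNNNGAA, a motif that reads the same on both strands. Promoters of 300 bases, from 250 before to 50 after each annotated start, were taken from RefSeq on GRCm38.p6. At least 1 entry was found for 9 of the 10 axis genes, all but *Socs2*. Of all 32851 promoters, 8.3% held the motif at least 1 time, 0.457% at least 2 times and 0.0335% at least 3 times. The *Cish* promoter, on the plus strand at chr9:107296409-107296708, held it 2 times, beginning at bases 1 and 12 of the transcribed part, and is printed because its gene varied most (capitals mark the motif).
Cish: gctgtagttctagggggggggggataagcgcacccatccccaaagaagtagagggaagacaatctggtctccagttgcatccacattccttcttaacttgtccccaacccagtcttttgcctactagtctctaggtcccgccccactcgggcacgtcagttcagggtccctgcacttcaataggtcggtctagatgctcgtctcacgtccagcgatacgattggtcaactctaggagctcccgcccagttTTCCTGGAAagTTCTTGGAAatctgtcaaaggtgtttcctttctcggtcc

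*Socs2* and *Cish* went up and down together in some mice but not in proportion. The log2 ratio of *Socs2* to *Cish* (each as FPKM + 1) was -0.17, -0.88 and -0.32 in WT and 1.18, 0.46 and -0.08 in TRIM24 C52/55A livers. *Cish* exceeded *Socs2* in every WT mouse, and *Socs2* exceeded *Cish* in TRIM24 C52/55A mice 1 and 2. The groups did not overlap, although the nearest pair of mice lay close together. The means differed by 0.98, with an exact two-sided permutation p of 0.1, the smallest this design allows (0.2 adjusted over the 4 ratios), and by 1.34 with a pseudocount of 0.1 FPKM.

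*Bcl6* had the largest log2 fold change of the tested axis genes. On chromosome 16 from 23965052 to 23988852, it had 3.27, 6.36 and 3.08 FPKM in WT and 28.7, 26.8 and 4.91 FPKM in TRIM24 C52/55A livers. Mice 1 and 2 of the TRIM24 C52/55A group were far above all WT mice, and mouse 3 lay inside the WT range. The means were 4.24 ± 1.84 and 20.1 ± 13.2 FPKM (SD, n = 3 each), a ratio of 4.75. The log2 fold change was 1.75 (standard error 0.57, interval from 0.44 to 3.06), with an unadjusted p of 0.0149 and an adjusted p of 0.107 from limma, and the exact two-sided permutation p on FPKM was 0.2. Without TRIM24 C52/55A mouse 3 the log2 fold change was 2.51 and the adjusted p 0.00173, and *Bcl6* was then the only called gene among the 9, where 6.48% of all genes were called. Without TRIM24 C52/55A mouse 2, the liver with adipocyte genes, the log2 fold change was 1.39 (adjusted p = 0.194). It was 1.35 (adjusted p = 0.308) without mouse 1 of that group. The interval of *Bcl6* overlaps the gene model *Gm37419* in the annotation.

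RefSeq gives *Bcl6* more than 1 start, and promoters of both carried the motif. They are printed because STAT5 and BCL6 are known to share DNA sites. The TRIM24 C52/55A mouse with the highest *Cish* had the lowest *Bcl6* of its group. In WT, by contrast, the mouse with the highest *Cish* also had the highest *Bcl6*. The promoter of the outer start, on the minus strand at chr16:23988803-23989102, held 1 match, and that of the inner start, on the minus strand at chr16:23981234-23981533, held 3 (capitals).
Bcl6 outer start: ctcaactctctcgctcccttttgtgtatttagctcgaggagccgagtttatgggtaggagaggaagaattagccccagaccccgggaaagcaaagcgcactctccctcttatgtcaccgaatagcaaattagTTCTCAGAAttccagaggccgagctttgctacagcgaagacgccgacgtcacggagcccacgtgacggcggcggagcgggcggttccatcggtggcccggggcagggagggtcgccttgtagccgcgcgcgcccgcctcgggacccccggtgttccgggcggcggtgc
Bcl6 inner start: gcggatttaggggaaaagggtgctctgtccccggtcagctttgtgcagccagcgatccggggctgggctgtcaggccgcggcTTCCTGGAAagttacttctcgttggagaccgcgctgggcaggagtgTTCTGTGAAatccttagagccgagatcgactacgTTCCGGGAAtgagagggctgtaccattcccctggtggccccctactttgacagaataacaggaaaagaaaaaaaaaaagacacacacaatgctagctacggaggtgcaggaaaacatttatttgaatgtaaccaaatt
Of the 16 promoters of axis genes, 5 held a match, where 8.3% of all promoters did, and these 5 came from 3 genes. The 2 that are not printed belonged to *Igfals*, with 1 match each. The windows of *Ghr*, *Jak2*, *Stat5a*, *Stat5b*, *Cux2* and *Igf1* held none, which says only that these letters were not there. A match is a stretch of letters, and binding was not measured.

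*Cux2*, on chromosome 5 from 121856366 to 122055654, was barely detected. It had 0.218, 0.0846 and 0.0682 FPKM in WT and 0.358, 0.0732 and 0.190 FPKM in TRIM24 C52/55A livers. The groups overlapped, and all 6 values were below the level at which genes were tested. The log2 ratio of *Bcl6* to *Cux2* (each as FPKM + 1) was 1.81 to 2.76 in WT and 4.45, 4.70 and 2.31 in TRIM24 C52/55A mice 1 to 3. With *Cux2* this low the ratio mostly restates the level of *Bcl6*, and the exact two-sided permutation p was 0.2.

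The spread among mice of the same genotype was then measured for every gene, as the SD of log2(FPKM + 1) within groups. Over all genes tested its median was 0.136, and the 95th percentile was 0.352. *Cish* had an SD of 1.48, rank 2 of 12225, *Socs2* 1.10, rank 13, and *Bcl6* 0.99, rank 22. The other 6 tested axis genes, from *Jak2* at 0.0625 to *Igfals* at 0.282, lay under that percentile. The spread was not confined to the TRIM24 C52/55A mice. Within WT alone, an SD as large as that of *Cish* was found in 0.254% of genes, of *Socs2* in 1.28% and of *Bcl6* in 1.55%. The highest WT mouse exceeded the lowest 3.72-fold for *Cish*, 2.55-fold for *Socs2* and 2.06-fold for *Bcl6*. Within the TRIM24 C52/55A group these ratios were 21.1, 11.2 and 5.85, and the SD of *Cish* ranked 1 of 12225.

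**Figure D3:**
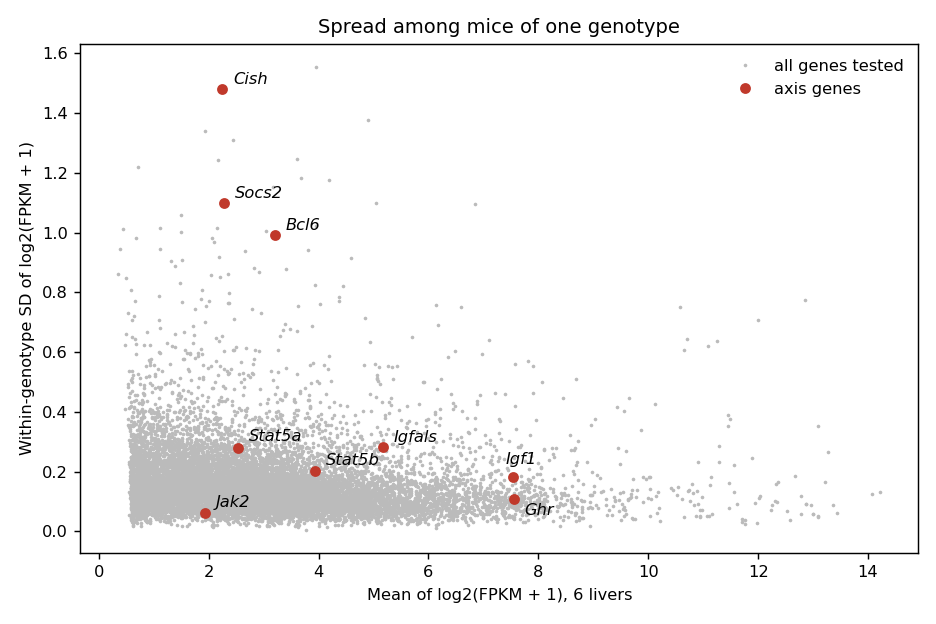
Within-genotype SD of log2(FPKM + 1) (vertical axis) against the mean of log2(FPKM + 1) over the 6 livers (horizontal axis) for the 12225 genes tested (grey), with the 9 tested axis genes in red. *Cish*, *Socs2* and *Bcl6* lie at the upper edge with SDs of 1.48, 1.10 and 0.99, while the other axis genes lie within the bulk.

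Among factors that act beside STAT5 in liver, *Onecut1*, which encodes HNF6 and is known to respond to growth hormone, had a similar profile over the mice to *Socs2*. It had 1.39, 1.98 and 1.94 FPKM in WT and 2.43, 0.850 and 21.7 FPKM in TRIM24 C52/55A livers. As for *Socs2* and *Cish*, TRIM24 C52/55A mouse 3 was highest by far and mouse 2 was lowest. Its spread ranked 4 of 12225, and its log2 fold change was 0.93 (limma, adjusted p = 0.526). *Foxa2*, a pioneer factor of liver, had 12.2, 17.4 and 13.4 FPKM in WT and 9.26, 10.4 and 25.6 FPKM in TRIM24 C52/55A livers, again with mouse 3 above and mice 1 and 2 below all WT mice. *Onecut1* and *Foxa2* were picked from the list for this spread, after their values were seen. Of the 16 factors of the list, 1 was called lower, where 6.09% of all genes were. It was *Cebpb*, a factor of the acute phase and of gluconeogenesis (log2 fold change -0.94, adjusted p = 0.0428), and it lost the call in 9 of 14 alternatives.

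**Figure D4:**
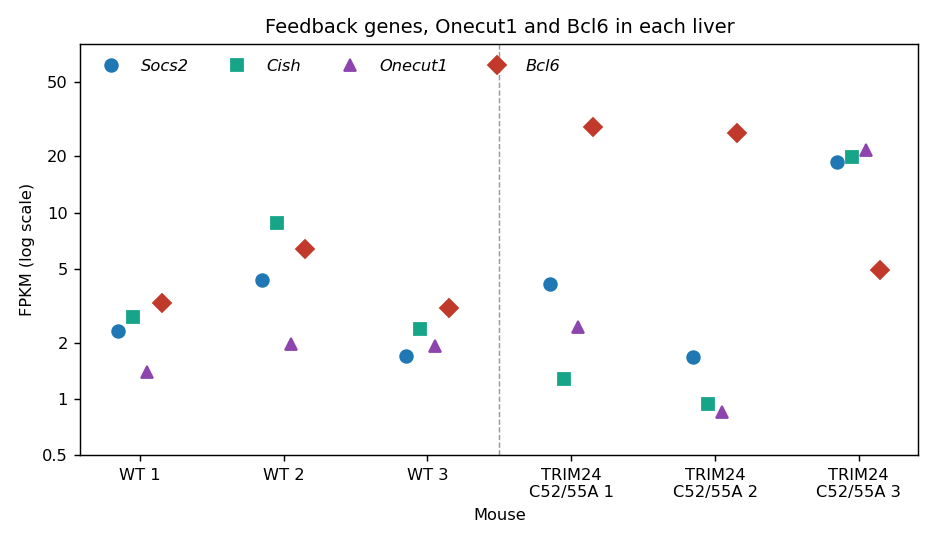
FPKM (log scale) of *Socs2*, *Cish*, *Onecut1* and *Bcl6* in each of the 6 mice. In TRIM24 C52/55A mouse 3 the first 3 genes stand at 18.7 to 21.7 FPKM and *Bcl6* at 4.91, whereas in mice 1 and 2 of that group *Bcl6* stands at 28.7 and 26.8 FPKM and *Cish* at 1.27 and 0.939. Among WT mice, mouse 2 is highest for both *Cish* and *Bcl6*, at 8.81 and 6.36 FPKM.

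Neither gene for a secreted output passed the test. *Igf1*, on chromosome 10 from 87826377 to 87937042, encodes the growth factor that carries much of the action of growth hormone. It had 164, 211 and 169 FPKM in WT and 197, 168 and 210.3 FPKM in TRIM24 C52/55A livers. The ranges were nearly the same, and WT mouse 2 and TRIM24 C52/55A mouse 3 were highest, as they were within their groups for *Socs2* and *Cish*. The log2 fold change was 0.08 with an interval from -0.20 to 0.36 (limma, adjusted p = 0.748), and without TRIM24 C52/55A mouse 2 it was 0.17. With each library left out in turn it ran from 0.01 to 0.19. *Igfals*, which encodes the acid-labile subunit that holds IGF1 in its circulating complex, had 26.8, 34.7 and 33.3 FPKM in WT and 43.5, 29.5 and 46.9 FPKM in TRIM24 C52/55A livers. Mice 1 and 3 of the TRIM24 C52/55A group were above all WT mice, and mouse 2 was within their range. For *Igfals* the log2 fold change was 0.31 with an interval from -0.09 to 0.71 (adjusted p = 0.340). Without mouse 2, which carried adipocyte genes, it was 0.51 (adjusted p = 0.0409), and *Igfals* was then the only axis gene called, where 10.4% of all genes were called. Its log2 fold change was 0.20 (adjusted p = 0.634) without WT mouse 1 and 0.18 (adjusted p = 0.622) without TRIM24 C52/55A mouse 3. The log2 ratio of *Igf1* to *Igfals* differed by -0.23 (exact two-sided permutation p = 0.2). In the files *Igfals* spans 3.2 kb, against 16.0 kb in the annotation, and *Igf1* 110.7 kb against 78.8 kb.

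Of 11 other tested genes of the IGF system, for ligands, receptors, binding proteins and substrates, 1 was called, a share near the 7.72% of all genes. *Irs2*, an adaptor of the insulin and IGF1 receptors, rose from 2.85 ± 0.830 to 5.45 ± 0.814 FPKM (SD, n = 3 each; log2 fold change 0.76, limma adjusted p = 0.0373), and lost the call in 5 of 14 alternatives. *Igfbp1*, a binding protein that insulin represses, had 68.6, 146 and 57.4 FPKM in WT and 37.2, 41.3 and 18.8 FPKM in TRIM24 C52/55A livers. Its groups did not overlap, and its adjusted p was 0.0611. Of 8 cytokine-family receptors related to the growth hormone receptor, 1 was called, where 7.72% of all genes were. *Lifr*, the receptor of leukaemia inhibitory factor, rose from 17.4 ± 2.64 to 42.1 ± 2.15 FPKM (SD, n = 3 each; log2 fold change 1.23, limma adjusted p = 0.0011), and kept the call in 14 of 14 alternatives. *Prlr*, the prolactin receptor gene, had 35.0, 39.1 and 54.6 FPKM in WT and 29.8, 15.4 and 36.9 FPKM in TRIM24 C52/55A livers (adjusted p = 0.202).

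Lists of sex-biased liver genes, which are known to depend on the pattern of STAT5 activity, were written with results of these livers known, so their counts are a description and their direction is not independent evidence. In a list of 16 genes known to be higher in male liver, 12 rose and 0 fell, with a median log2 fold change of 1.41. In a list of 21 genes known to be higher in female liver, 12 were tested, 7 fell and 0 rose, with a median of -1.18. *Moxd1* of the first list and *Hao2* and *Slc22a26* of the second were under 0.5 FPKM in every liver of 1 group and were tested through the other group, where they had to be higher. With a minimum mean of 1 FPKM, 7 of the second list were tested and 5 fell. Without TRIM24 C52/55A mouse 2, the liver with adipocyte genes, 13 of the first list rose and 4 of the second fell. Over all alternatives 7 to 13 of the first rose and 4 to 8 of the second fell. The first count was 7 without WT mouse 1, without WT mouse 3 or with no filter, and 8 without TRIM24 C52/55A mouse 1. The second was also 4 without WT mouse 3, without TRIM24 C52/55A mouse 1 or with no filter. Over all genes tested the median was -0.075, with 1.64% called higher and 6.09% called lower. The largest called changes were in *Selenbp2* (log2 fold change 4.95), *Hsd3b5* (4.31), *Gstp1* (2.20) and *Cyp4a12b* (2.12) of the first list. In the second they were in *Cyp17a1* (-2.96), *Acot3* (-2.21), *Slc22a27* (-2.02) and *Cyp2a4* (-1.48). *Hsd3b5* lost the call in 4 and *Cyp2a4* in 10 of 14 alternatives, and the other 6 kept it in all. Within its group, TRIM24 C52/55A mouse 3 was lowest for 5 of the 12 called genes of the first list, among them *Cyp7b1* (300, 185 and 152 FPKM in TRIM24 C52/55A mice 1 to 3), between the others for 4, among them *Selenbp2* (783, 593 and 680 FPKM), and highest for 3. It was highest of its group for 6 of the 7 called genes of the second list, such as *Cyp17a1* (0.999, 1.53 and 2.70 FPKM, against 24.8, 18.0 and 17.1 FPKM in WT). The same places were not counted over all genes, so these counts have no baseline.

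**Figure D5:**
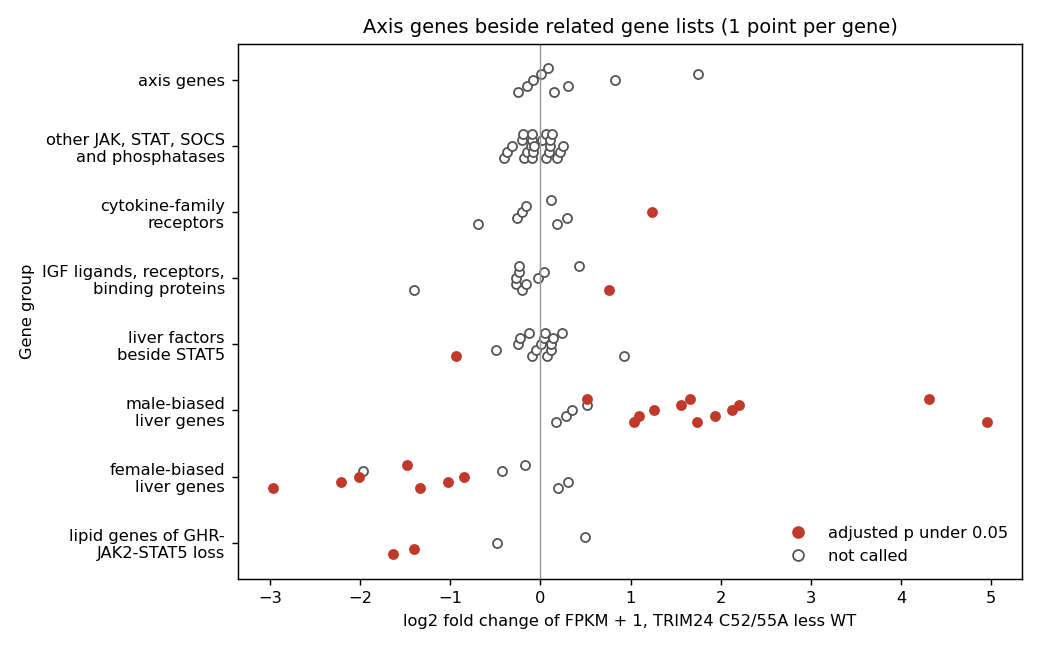
Log2 fold change of FPKM + 1 (TRIM24 C52/55A less WT, horizontal axis) for each tested gene of the axis and of 7 related lists; filled red points have a limma adjusted p-value under 0.05. None of the 9 axis genes and 23 other JAK, STAT, SOCS and phosphatase genes is called, where 7.72% of all genes are. Of 16 male-biased genes 12 are called higher (1.64% of all genes), and of 12 female-biased genes 7 are called lower (6.09% of all genes). Both sex-biased lists were written with results of these livers known. *Moxd1*, *Hao2* and *Slc22a26* were tested only through the group where they are higher.

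Hepatic loss of the growth hormone receptor, JAK2 or STAT5 in mice is known to raise lipid uptake genes such as *Cd36* and *Pparg*. Of 4 such genes, chosen with earlier results of these data known, 0 rose and 2 fell. Over all genes 1.64% were called higher and 6.09% lower. *Cd36*, a fatty acid transporter gene, fell by 1.64 and *Pparg* by 1.40 on the log2 scale (limma, adjusted p = 0.000333 and 0.00491), in 14 of 14 alternatives each. The study itself reports lower *Pparg* mRNA and protein in livers of HFD-fed knockin mice. It holds that reduced stability of the mRNA, through P-bodies, is the most likely reason. A relation of these falls to growth hormone signalling was not tested. *Lpl* had 1.47, 3.57 and 2.46 FPKM in WT and 2.08, 9.62 and 2.37 FPKM in TRIM24 C52/55A livers (adjusted p = 0.562), the highest in mouse 2, the liver with adipocyte genes. *Vldlr* had 1.08 ± 0.266 and 0.489 ± 0.126 FPKM (SD, n = 3 each; adjusted p = 0.0636).

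Markers of other liver cells were read beside these values. Over all genes tested 7.72% were called, and the median log2 fold change was itself negative, at -0.075. Of 7 Kupffer cell markers 0 were called and all 7 had a negative log2 fold change. Their sums were 155 to 204 FPKM in WT and 135 to 182 FPKM in TRIM24 C52/55A. Of 6 sinusoidal endothelial markers 1 fell, *Lyve1* (sums 89.4 to 94.9 and 79.1 to 88.8 FPKM), and of 6 stellate cell and 4 cholangiocyte markers 0 were called. Of 7 lymphocyte markers 1 could be tested, *Cd4*, which was at most 0.408 FPKM in WT and 1.87 to 2.12 FPKM in TRIM24 C52/55A livers, and so entered the test only through the latter group. The sums of all 7 were 2.03 to 2.57 and 3.15 to 3.99 FPKM, and those of the other 6 were 1.68 to 2.18 and 1.02 to 2.01 FPKM. The part of these cells in the values of the axis genes was not tested. The sums of TRIM24 C52/55A mouse 3, which was highest for *Socs2* and *Cish*, were 136, 81.7, 113, 21.8 and 3.15 FPKM for Kupffer, endothelial, stellate, cholangiocyte and lymphocyte markers, each close to or between those of mice 1 and 2 of its group. Without *Cd4* the lymphocyte sum of mouse 3 was 1.02 FPKM, below the 2.01 and 1.40 FPKM of mice 1 and 2.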

How the data were processed

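RNA of whole liver was measured in 3 WT and 3 TRIM24 C52/55A mice. Each library has its own deposited table of FPKM, made by the authors. The submitters' processing notes name bcl2fastq, Salmon 0.14.0, DESeq2 1.30.0 and GRCm38, without giving their roles; the step that made the FPKM is not given in the sources used here. FPKM keep no total counts, so no counting error was derived, and the number of mice sets the precision. A gene without a row in a library was set to 0 (3544 to 3819 genes per library). Genes averaging 0.5 FPKM or more entered limma 3.58.1 (lmFit, then eBayes with a trend) in R 4.3.3 on the log2(FPKM + 1) scale, p-values were adjusted by Benjamini-Hochberg over these 12225 genes, and called at an adjusted p under 0.05. Fold changes on this scale understate changes of low genes. Ratios were compared by exact permutation. Other steps ran in Python 3.11.15 with scipy 1.17.1, numpy 2.4.6, pandas 2.3.3 and, for plots, matplotlib 3.10.9. File intervals were compared with GENCODE M21 (GRCm38), in which 21454 of 21528 identifiers were found.

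The axis genes and lists were chosen with earlier results of these data known. The text names all axis genes, *Trim24*, at most 4 called genes per list, and markers that moved with a group or library; *Igfbp1*, *Prlr*, *Onecut1*, *Foxa2*, *Cyp7b1*, *Moxd1*, *Hao2*, *Slc22a26*, *Lpl* and *Vldlr* were added after their values were seen. Alternatives were a pseudocount of 0.1, no filter, a minimum mean of 1 FPKM, TPM, median-of-ratios and quantile scaling, no variance trend, a replicate block, and each library left out.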

Additional observations from a re-analysis of the deposited data

How the results depend on the processing

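Over 14 alternatives the axis genes stayed without a call, except *Bcl6* without TRIM24 C52/55A replicate 3 and *Igfals* without TRIM24 C52/55A replicate 2, so that with a replicate left out 0 to 1 were called. The log2 fold change of *Ghr* changed sign under TPM scaling (-0.052) and ran from -0.051 to 0.074 with a library left out, being negative without replicate 1 of WT (-0.040) or replicate 3 of TRIM24 C52/55A (-0.051). That of *Cish* ran from -1.25 to 0.46 and changed sign without WT replicate 2 (0.34), TRIM24 C52/55A replicate 1 (0.35) and TRIM24 C52/55A replicate 2 (0.46). The adjusted p of *Bcl6* ran from 0.00173 to 0.308. Genes called over the whole table numbered 944 (200 higher, 744 lower), 347 without a filter, 1555 with TPM (197 higher, 1358 lower) and 296 to 1272 with a library left out. Quantile normalization gave 255 higher and 379 lower, and median-of-ratios scaling 250 higher and 406 lower. Of the pathway lists' 90 tested genes, 24 were called, 14 without a filter and 14 to 23 with a library left out. Among the 23 other JAK, STAT, SOCS and phosphatase genes, 2 were called lower with TPM and 1 without TRIM24 C52/55A replicate 2. Their median log2 fold change was 0.0167 with median-of-ratios scaling and 0.00241 with quantile normalization. The called genes with the largest changes, at most 4 per pathway list, numbered 13. Of these, 9 kept their call in all alternatives, and *Irs2*, *Cebpb*, *Hsd3b5* and *Cyp2a4* did not (limma, adjusted p of up to 0.139). *Cyp7b1*, *Moxd1*, *Hao2* and *Slc22a26*, also called and named, were not in this count. The ratio of *Socs2* to *Cish* differed by 0.65 to 1.28, and that of *Stat5b* to *Stat5a* by 0.24 to 0.53, with a library left out. The cause of these shifts was not tested. With 3 mice per group the intervals of *Socs2* and *Cish* leave several-fold changes undetected.

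Mice with the same number are different animals, and the deviations of same-numbered mice correlated at -0.123, -0.099 and 0.003, so the numbers do not pair them. With the replicate number as a block 578 genes were called, and 0 axis genes (*Bcl6* adjusted p = 0.0586).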

Other observations

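The wide spread of *Cish*, *Socs2* and *Bcl6* placed them beside a few other genes. After *Cish*, and with *Socs2*, the 25 widest within-genotype spreads included the immediate early and stress genes *Egr1* (9.25, 36.0 and 3.09 FPKM in WT and 16.4, 15.8 and 5.98 FPKM in TRIM24 C52/55A mice 1 to 3), *Plk3*, *Gadd45g* and *Nr4a1*, for which WT mouse 2 was the highest of all 6 mice. *Gadd45g* had 5.01, 29.2 and 5.89 FPKM in WT and 3.18, 5.55 and 15.1 FPKM in TRIM24 C52/55A livers, so that WT mouse 2 and TRIM24 C52/55A mouse 3 were highest of their groups, as they were for *Cish*. The same 25 held *Alas1*, the rate-limiting enzyme of haem synthesis, with 168, 174 and 277 FPKM in WT and 63.6, 22.3 and 185 FPKM in TRIM24 C52/55A livers, and *Cyp7a1*, the rate-limiting enzyme of bile acid synthesis, with 14.2, 9.65 and 13.8 and then 20.1, 2.28 and 25.3 FPKM. These genes were chosen after their values were seen, their spread was not tested, and limma called none of the 6 between genotypes (adjusted p of at least 0.162, for *Alas1*).

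Each library had a few genes at least 2-fold above or below all other libraries, 2 to 13 above and 1 to 7 below. In TRIM24 C52/55A mouse 3 there were 10 above, led by *Onecut1* and *Socs2* and including *Cish*, and *Clec2h* and *Slc25a30* (9.60, 11.1 and 9.30 FPKM in WT and 9.52, 6.89 and 30.6 FPKM in TRIM24 C52/55A mice 1 to 3) were among the others. *Ghr* was 0.0762 and *Igfals* 0.105 above the next library on the log2 scale in this mouse.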
